A study of Homo sapiens with 2 samples.

Results

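LGALS3BP encodes Mac-2-binding protein (M2BP), the secreted glycoprotein from which the glycan isomer M2BPGi is named, and the LGALS genes encode galectins. Gene symbols were matched for LGALS3BP, LGALS1, LGALS3, LGALS4, LGALS8 and LGALS9. Of these 6 genes, 5 were found among the 16424 genes with deposited values, and LGALS9 was not analysed here. All 5 passed a mean of at least 1 CPM, as 13724 genes did. CPM is the number of tags of a gene scaled to the tags of its library.

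The series measured how HCC cells respond to M2BPGi, with cap analysis of gene expression (CAGE). Each CAGE tag marks the 5′ end of a capped RNA, so a level in CPM does not grow with the length of the transcript and can be set beside that of another gene. The non-treated group was PLC/PRF/5 cells, an established human hepatoma line, in medium with 0 µg/ml M2BPGi, and the M2BPGi-treated group was the same line given 3 µg/ml M2BPGi. Both were collected after 6 h, and each group has 1 library, so no difference below has a replicate check and no test of the conditions was possible. The libraries held 24040209 tags (non-treated) and 24862941 tags (M2BPGi-treated).

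Galectins are small lectins that bind beta-galactoside sugars on glycoproteins and glycolipids. They are made in the cytosol, and those that remain inside the cell can mark damaged lysosomes. Others leave the cell by a route that does not use the usual secretory signal and cross-link glycoproteins at the cell surface. M2BP is a heavily glycosylated ligand of galectin-3 that also binds matrix proteins, and its glycan isomer in serum is used as a marker of liver fibrosis.

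LGALS3BP was lower and 3 of the 4 galectin members were higher in M2BPGi-treated cells, where 42.9% of all genes were higher. LGALS3BP, LGALS3 and LGALS1 were the most abundant members in both libraries. None of the members differed 2-fold. The CPM of a gene in bulk cells cannot tell fewer expressing cells from less RNA per cell.

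LGALS3BP (ENSG00000108679) lies on the minus strand of chromosome 17, from 78971238 to 78980109, and the annotation gives it 19 transcripts with 16 different starts. This position and the others below are from GENCODE v29 on GRCh38, not from the build named for the deposited values. The promoter is shown because CAGE tags count 5′ ends and because it holds a motif of the interferon response. It covers chr17:78979874-78980173 (RefSeq, GRCh38.p14, minus strand), 250 bases before to 50 after a start, and the capitals mark motif matches.
LGALS3BP: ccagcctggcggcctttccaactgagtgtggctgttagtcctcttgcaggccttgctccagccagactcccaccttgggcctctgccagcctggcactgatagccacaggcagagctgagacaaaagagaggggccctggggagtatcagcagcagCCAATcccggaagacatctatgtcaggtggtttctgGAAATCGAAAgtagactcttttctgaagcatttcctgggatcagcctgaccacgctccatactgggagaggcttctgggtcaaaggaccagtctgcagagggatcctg
The longer match, 58 bases before the start, is to the interferon-stimulated response element, searched on both strands as GAAA, any 2 bases and GAAA. The shorter match, 94 bases before the start, is to CCAAT. Of 35116 promoter windows of 300 bases, 3.57% held the response element and 34.6% held CCAAT. A match describes the sequence and does not show that a factor binds there.

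LGALS3BP had 277 CPM in non-treated cells (exact Poisson 95% interval 271 to 284). In M2BPGi-treated cells it had 213 CPM (207 to 219). These intervals cover counting error only, and tags copied by PCR are not independent molecules. The intervals of the libraries did not overlap. The log2 ratio (M2BPGi-treated over non-treated, after 1 CPM was added to both values) was -0.38, or 1.30-fold lower. The added 1 CPM understates the change of low genes. The exact Clopper-Pearson 95% interval of the log2 tag ratio, without an added value, was -0.43 to -0.33. LGALS3BP went from rank 562 to rank 838 among the listed genes. Of the 13724 genes, 13.6% had a lower log2 ratio. Among the 1311 genes with 0.5 to 2 times its mean CPM, the median log2 ratio was 0.09 and 7.86% had a lower ratio than LGALS3BP.

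LGALS3 (ENSG00000131981; chromosome 14 from 55124110 to 55145413, plus strand) encodes galectin-3, one of the galectins known to bind M2BP. Its promoter (chr14:55129002-55129301, RefSeq, GRCh38.p14, plus strand) is shown for contrast with that of LGALS3BP, since it holds other motifs, with matches to GGGCGG on either strand in capitals.
LGALS3: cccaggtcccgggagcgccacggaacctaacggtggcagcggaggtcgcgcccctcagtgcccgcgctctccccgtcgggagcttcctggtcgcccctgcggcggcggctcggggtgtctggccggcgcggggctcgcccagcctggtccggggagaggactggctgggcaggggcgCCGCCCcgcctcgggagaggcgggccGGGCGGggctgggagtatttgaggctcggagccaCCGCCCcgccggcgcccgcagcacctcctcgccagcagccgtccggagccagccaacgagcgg
The 3 matches begin 73, 47 and 13 bases before the start, and 45.0% of the 35116 windows held such a match. The window has 78.3% G and C, against 56.7% for LGALS3BP, and no match to the response element. LGALS3 had 136 CPM in non-treated cells (132 to 141). In M2BPGi-treated cells it had 149.98 CPM (145 to 155). The value was higher in M2BPGi-treated cells, and the intervals did not overlap. Its log2 ratio was 0.14, with an interval of 0.07 to 0.20. This is a small difference for these libraries, since 36.0% of the 2074 genes of similar level had a higher ratio.

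LGALS1 (ENSG00000100097; chromosome 22 from 37675608 to 37679806, plus strand) encodes galectin-1, a galectin that forms dimers. It had 92.0 CPM in non-treated cells (88.2 to 95.9). In M2BPGi-treated cells it had 109.9 CPM (106 to 114). This was the highest log2 ratio of the 5 members, 0.25 with an interval of 0.18 to 0.34. Of the 2786 genes of similar level, 15.4% had a higher ratio.

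LGALS8 (ENSG00000116977; chromosome 1 from 236518000 to 236552981, plus strand) encodes galectin-8, which has a pair of sugar-binding domains and recognises damaged endosomes and lysosomes. It had 33.0 CPM in non-treated cells (30.7 to 35.4). In M2BPGi-treated cells it had 36.5 CPM (34.2 to 39.0), and these intervals overlapped. Its log2 ratio was 0.14, and the interval of the tag ratio, 0.01 to 0.29, came close to 0. Of the 4871 genes of similar level, 21.5% had a higher ratio. The gene overlaps LGALS8-AS1 and HEATR1 on the other strand. The sources used here do not state whether tags were assigned by strand, so the assignment of tags to these 3 genes is uncertain. LGALS8-AS1, an antisense RNA, had 2.29 CPM without and 1.45 CPM with M2BPGi, a log2 ratio of -0.43 with an interval of -1.31 to -0.03, and the ratio was -0.18 with 5 CPM added in place of 1 and -0.62 with 0.1 CPM. HEATR1 had 22.2 and 20.47 CPM (interval -0.29 to 0.06).

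LGALS4 (ENSG00000171747; chromosome 19 from 38801671 to 38813364, minus strand) encodes galectin-4, known from the epithelium of the gut. It was the lowest of the members in both libraries. It had 4.83 CPM in non-treated cells, from 116 tags (3.99 to 5.79). In M2BPGi-treated cells it had 3.50 CPM, from 87 tags (2.80 to 4.32). The Poisson intervals overlapped. Its log2 ratio was -0.37, and the interval of the tag ratio, -0.88 to -0.05, was wide. Among the 2839 genes of similar level the median was -0.11 and 21.5% had a lower ratio, so such a decrease was common at this level. The promoter (chr19:38812896-38813195, RefSeq, GRCh38.p14, minus strand) is shown because LGALS4 was the other lower member, and it has no capitals since none of the motifs searched, which also included TATAAA, had a match.
LGALS4: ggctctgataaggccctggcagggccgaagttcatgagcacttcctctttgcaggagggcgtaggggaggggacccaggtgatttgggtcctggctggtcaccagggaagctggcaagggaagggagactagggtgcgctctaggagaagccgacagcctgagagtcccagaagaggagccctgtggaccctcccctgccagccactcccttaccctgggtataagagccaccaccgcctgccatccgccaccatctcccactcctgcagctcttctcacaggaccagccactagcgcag
TATAAA was held by 11.5% of the windows, and by 1 of the 3 windows of LGALS8. The promoters of 4 members that the deposited values list were in the RefSeq table used. The deposited values are per gene, so they do not tell the tags of one start from those of another.

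**Figure D1:**
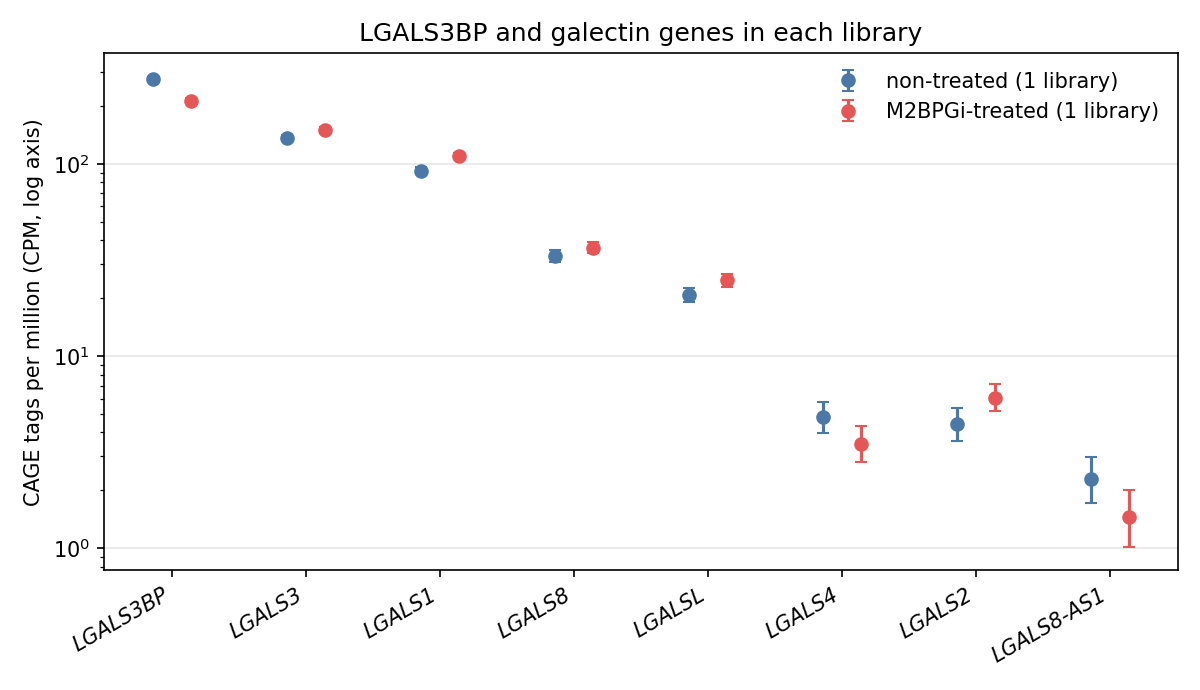
CPM on a log axis of the 5 members and of LGALSL, LGALS2 and LGALS8-AS1 in the non-treated (blue) and M2BPGi-treated (red) library. Bars are exact Poisson 95% intervals for counting error, smaller than the points for the abundant genes, and LGALS3BP goes from 277 to 213 CPM while LGALS3 goes from 136 to 149.98 CPM.

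Read across the members, 2 were lower and 3 higher in M2BPGi-treated cells, against 57.0% and 42.9% of all genes. At least 20% lower were 2 of 5, LGALS3BP and LGALS4, and 0 of 5 were at least 25% higher. Of all 13724 genes, 18.4% were at least 20% lower and 9.04% at least 25% higher. These bounds are the same fold in either direction, with 1 CPM added to both values. At the 2-fold level 0 members were called, against 0.24% of all genes higher and 0.43% lower. The median log2 ratio of the members was 0.14, and that of all genes was -0.05.

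The libraries were not balanced in direction. By these bounds 1240 of all genes were higher and 2532 lower, so that 32.9% of these were higher. After scaling by the trimmed mean of M-values (TMM) they were 1679 and 1970, or 46.0% higher. After scaling to a median log2 ratio of 0 they were 1716 and 1920, or 47.2% higher. The direction of each member was the same under both scalings. With the median scaling LGALS4, at -0.32, was just short of 20% lower, and LGALS3BP, at -0.33, was just past it. With 5 CPM added in place of 1, LGALS4 was at -0.21, so that LGALS3BP alone of the 5 was at least 20% lower.

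**Figure D2:**
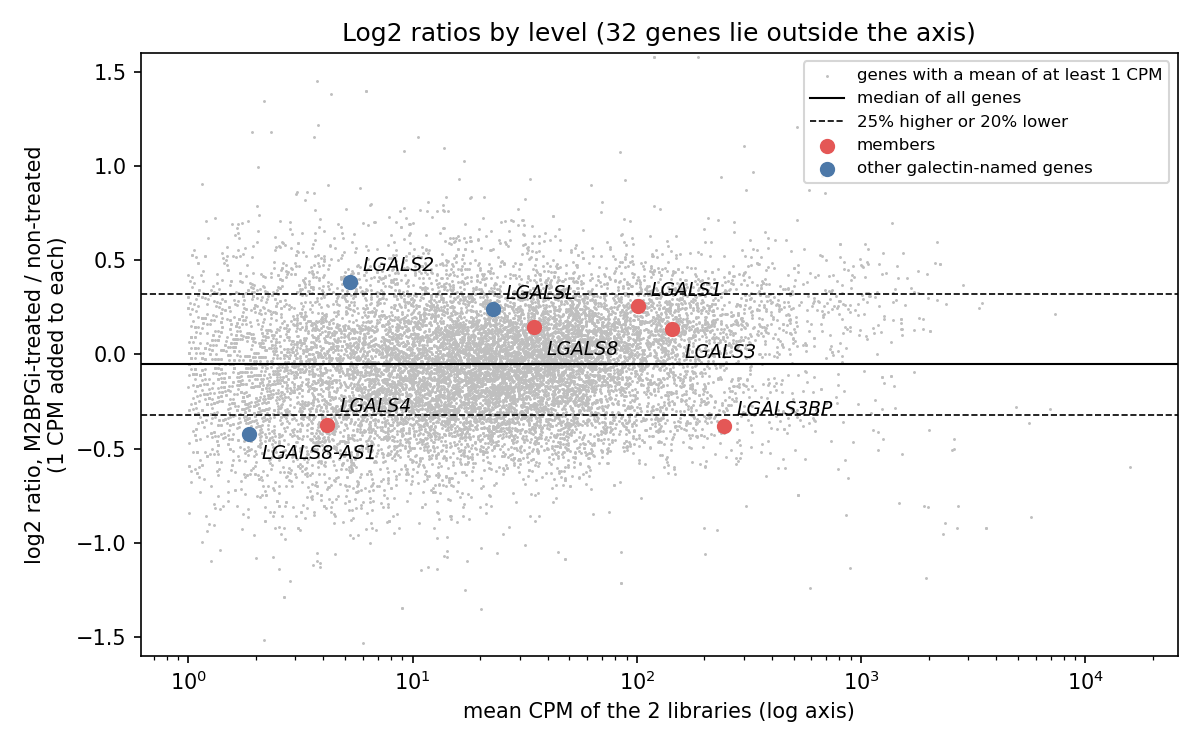
Log2 ratio, M2BPGi-treated over non-treated, against the mean CPM of the 2 libraries (log axis), with 1 point per gene, members in red, other genes with galectin names in blue, the median of all genes as a solid line and dashed lines at 25% higher and 20% lower. LGALS3BP and LGALS4 lie below the lower dashed line and the 3 other members lie above the median, and 32 genes are outside the axis.

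A list of other galectin genes named 12 genes, of which LGALSL and LGALS2 had deposited values. LGALSL (ENSG00000119862) encodes a galectin-like protein. It had 20.8 CPM without and 24.7 CPM with M2BPGi, a log2 ratio of 0.24 with an interval of 0.08 to 0.42. LGALS2 (ENSG00000100079), which encodes galectin-2, had 4.41 and 6.07 CPM, from 106 and 151 tags. Its log2 ratio was 0.39, with an interval of 0.09 to 0.83. Both were higher in M2BPGi-treated cells under each scaling. LGALS2 was at least 25% higher, though not with 5 CPM added in place of 1, where its log2 ratio was 0.23. Of all genes, 42.9% were higher and 9.04% at least 25% higher as deposited. With TMM 50.7% of all genes were lower and 12.2% at least 25% higher. With median scaling these shares were 50% and 12.5%. The median log2 ratio of LGALSL and LGALS2 was 0.31.

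In order of level, LGALS3BP was followed by LGALS3, LGALS1, LGALS8 and LGALSL in both libraries, and the Poisson intervals of neighbours in this order did not overlap. LGALS4 and LGALS2 came last. Their intervals overlapped in non-treated cells, where LGALS4 was the higher, and did not overlap in M2BPGi-treated cells, where LGALS2 was the higher.

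The 6 listed galectin genes together had 291 CPM without and 331 CPM with M2BPGi. LGALS3 took 46.8% of these tags in non-treated cells (exact Clopper-Pearson 95% interval 45.7% to 48.0%) and 45.4% (44.3% to 46.4%) in M2BPGi-treated cells. LGALS1 took 31.6% (30.5% to 32.7%) and 33.2% (32.2% to 34.3%). The intervals of both shares overlapped between the libraries. LGALS8 took 11.3% (10.6% to 12.1%) and 11.0% (10.4% to 11.7%). LGALS4 took 1.66% (1.37% to 1.98%) and 1.06% (0.848% to 1.30%), and here the intervals did not overlap. LGALS3 and LGALS1 thus made up most tags of the 6 listed galectin genes in either condition.

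A ratio of genes within a library does not depend on how the libraries were scaled. In non-treated cells there were 2.03 LGALS3BP tags for each LGALS3 tag. In M2BPGi-treated cells there were 1.42. The treated value was 0.699 of the non-treated one, with an exact 95% interval of 0.658 to 0.742 for counting error. M2BP and galectin-3 transcripts therefore stood closer to each other in M2BPGi-treated cells. Against LGALS1, LGALS3BP went from 3.02 to 1.94, a factor of 0.643 (0.601 to 0.687). Against LGALS8, it went from 8.41 to 5.83, a factor of 0.694 (0.626 to 0.769). Against LGALS4, it went from 57.5 to 60.9, and the interval of this factor, 0.793 to 1.42, held 1. Within the galectins, LGALS3 and LGALS8 kept nearly the same ratio, 4.14 and 4.11, with a factor of 0.993 (0.891 to 1.11). LGALS3 relative to LGALS1 went from 1.48 to 1.36, a factor of 0.920 (0.854 to 0.990). LGALS3 relative to the scarce LGALS4 went from 28.3 to 42.9, a factor of 1.52 (1.13 to 2.03). Relative to LGALS2, also scarce, it went from 31.0 to 24.7, and the interval of this factor, 0.614 to 1.03, held 1.

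**Figure D3:**
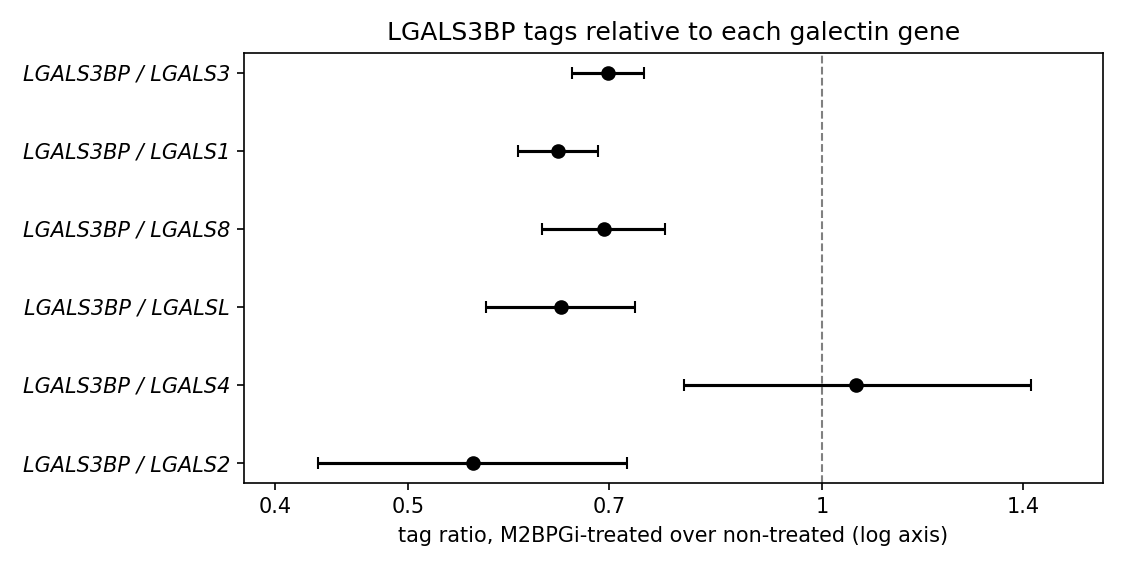
Ratio of LGALS3BP tags to the tags of each listed galectin gene, M2BPGi-treated over non-treated (log axis), where 1 (dashed) is no difference and bars are exact 95% intervals for counting error. The factors against LGALS3, LGALS1, LGALS8, LGALSL and LGALS2 lie from 0.558 to 0.699 and below 1 with their intervals, while that against LGALS4 is 1.06 and its interval holds 1.

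Among the genes nearest to LGALS3BP by level in the 2 libraries, as the distance between log2 values of CPM plus 1, were RCN2 and ITM2C. RCN2 was at a distance of 0.029, with 279 CPM without and 209 CPM with M2BPGi. ITM2C was at 0.036, with 271 and 212 CPM. For LGALS3 the nearest were AAMP at 0.0013, HNRNPA1P7 at 0.015 and COMMD6 at 0.024. AAMP had 137 and 149.98 CPM, and HNRNPA1P7 is a pseudogene with near-identical copies, so its tags are uncertain. With 2 libraries, such nearness describes level and direction alone.

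Genes of known galectin-3 ligands, glycoproteins of the cell surface and lysosome, were a list of 22. Of these, 19 had deposited values and 18 passed the filter. All 18 were lower in M2BPGi-treated cells, with 6 at least 20% lower, a median log2 ratio of -0.29 and a range of -0.60 to -0.01. Of all genes, 57.0% were lower and 18.4% at least 20% lower. Under TMM or median scaling 17 of the 18 were lower and CD44 was higher, while 50.7% of all genes were lower with TMM and, as that scaling sets, as many lower as higher with the median. At least 20% lower were then 5 (TMM) and 4 (median) of the 18, against 14.4% and 13.99%. In this list and those below, the lowest and highest genes are named among those with a mean of at least 10 CPM. The transferrin receptor gene TFRC was the lowest, with 515 CPM without and 338 CPM with M2BPGi (log2 ratio -0.60, interval -0.65 to -0.57). The insulin receptor gene INSR had 25.5 and 17.5 CPM (-0.52, -0.73 to -0.36). BSG, which encodes basigin, had 846 and 616 CPM (-0.46, -0.49 to -0.43). The highest were SLC3A2, ITGA5 and LRP1, at -0.14, -0.19 and -0.20. SLC3A2, for the heavy chain of the CD98 amino acid transporter, had 164 and 149 CPM. The integrin gene ITGB1 was the most abundant, with 1363 and 1114 CPM. BSG, ITGB1, CEACAM1, CEACAM5 and ITGA3, 5 of the 18, share stretches of at least 95% identity with genes elsewhere, so their tags are less certain. The 13 others were all lower as well. The listed ligand genes summed to 4585 CPM without and 3618 CPM with M2BPGi, and this direction was that of LGALS3BP and not of LGALS3.

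Of 10 genes for matrix partners of M2BP, such as fibronectin, nidogen, collagens and an integrin, 7 had deposited values and 5 passed. Of these 5, 4 were lower and COL6A1 was higher, under each scaling, with a median log2 ratio of -0.29. The share of all genes that were lower was 57.0% as deposited, 50.7% with TMM and 50% with the median. At least 20% lower were 2 of 5, against 18.4% of all genes, and 1 of 5 with either scaling, against 14.4% (TMM) and 13.99% (median). The fibronectin gene FN1 had 598 CPM without and 419.9 CPM with M2BPGi (-0.51, interval -0.55 to -0.47). The nidogen gene NID1 had 37.3 and 28.8 CPM (-0.36), and COL5A2 had 25.8 and 22.9 CPM (-0.17). ITGB1 is in this list as well as among the galectin-3 ligands.

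Galectins and M2BP meet through N-glycans whose branches carry galactose. A list of 11 genes for enzymes that build or modify N-glycans was read, and it is mixed in function. Of these, 10 had deposited values and passed, with 8 lower and 2 higher, under each scaling, and a median log2 ratio of -0.20. At least 20% lower were 3 of 10 under each scaling, against 18.4% of all genes as deposited, of which 57.0% were lower at all, and 14.4% (TMM) and 13.99% (median). MAN2A1, a mannosidase of the Golgi, had 22.6 CPM without and 14.6 CPM with M2BPGi (-0.60, interval -0.83 to -0.44). The branching enzyme genes MGAT2 and MGAT1 followed, at -0.45 and -0.41. MGAT5, whose product adds the branch that galectin-3 binds with high affinity, had 22.6 and 20.4 CPM (interval -0.33 to 0.03). The highest were MGAT4A at 0.11, MGAT5 at -0.14 and MGAT4B at -0.19.

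LGALS3BP is known as an interferon-stimulated gene. Of 23 other genes of this kind, 16 had deposited values and 14 passed. In M2BPGi-treated cells 11 were lower and 3 higher, with a median log2 ratio of -0.14, and 9 were lower and 5 higher after either scaling, where the median was -0.09. Of all genes, 57.0% were lower, and 50.7% after TMM scaling, while median scaling makes as many lower as higher. At least 20% lower were 5 of 14, and IFITM2 was at least 25% higher, against 18.4% and 9.04% of all genes. After either scaling 4 of 14 were at least 20% lower, against 14.4% and 13.99%. The transcription factor gene IRF1 was the lowest, with 17.3 CPM without and 8.97 CPM with M2BPGi (-0.87, interval -1.19 to -0.71). IFIT1 had 54.9 and 35.4 CPM (-0.62), and STAT2 had 38.3 and 28.8 CPM (-0.40). The highest were IFITM2 (0.37), ISG15 (0.04) and OAS1 (-0.02). IFITM2 and IFITM3, both in the list, are near-identical, so their tags are uncertain. ISG15 was the most abundant, with 721 and 744 CPM, so the list did not move as one. The response element of LGALS3BP was also held by promoters of 7 of the 12 listed genes in the RefSeq table, with a median log2 ratio of -0.19. The 7 of the 12 with CCAAT had a median of -0.40 and the 7 with GGGCGG one of -0.22. These groups are small and share genes, so their medians cannot be ranked by motif. Over all 316 genes with a match to the response element the median was -0.09 and 19.9% were at least 20% lower. For the 8543 genes without one these were -0.05 and 17.0%. The part of the response element in these values was not tested.

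Galectin-8 and galectin-3 act with the lysosomal mTORC1 machinery and with damage receptors when lysosomes are injured. A list of galectin partners at damaged lysosomes was read. It includes AMPK genes and is not limited to partners of galectin-8 and galectin-3. All 20 genes of the list passed, with 10 higher and 10 lower and a median log2 ratio of 0.01. Of all genes, 42.9% were higher and 57.0% lower. At least 25% higher was 1 of 20 and at least 20% lower 1 of 20, against 9.04% and 18.4% of all genes. After TMM scaling 11 were higher and 9 lower, against 50.7% of all genes lower. After median scaling, which makes as many genes lower as higher, 12 were higher and 8 lower. The median of the list was 0.06 with either scaling. With either scaling 3 of 20 were at least 25% higher and 0 of 20 at least 20% lower, against 12.2% and 14.4% (TMM) or 12.5% and 13.99% (median) of all genes. CALCOCO2, PDCD6IP and TRIM16 of this list have near-identical copies, so their tags are less certain. RRAGD, a Rag GTPase gene, had 31.7 CPM without and 42.0 CPM with M2BPGi (0.40, interval 0.27 to 0.54). LAMTOR5, for a subunit of the Ragulator complex, had 112 and 139 CPM (0.32), and PRKAA2, for a catalytic subunit of AMPK, was at 0.28. The lowest were SLC38A9 at -0.33, RRAGB at -0.19 and ULK1 at -0.15. The 20 genes summed to 1113 CPM without and 1196 CPM with M2BPGi. LGALS8 and LGALS3 each had a log2 ratio of 0.14.

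**Figure D4:**
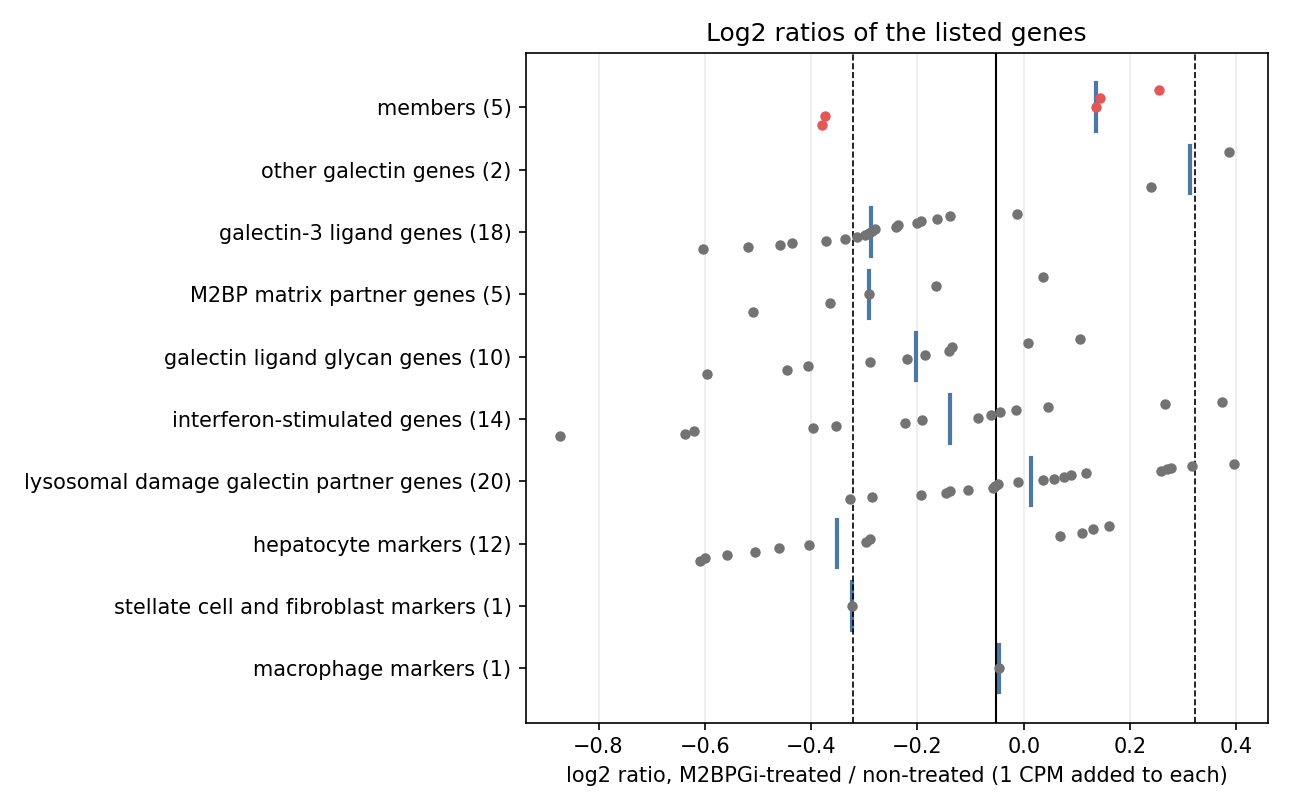
Log2 ratio, M2BPGi-treated over non-treated, for each gene with a mean of at least 1 CPM (points, number in brackets) in the members (red) and each list (grey), with the median of the list (blue bar), the median of all genes (solid line) and 25% higher and 20% lower (dashed lines). All 18 galectin-3 ligand genes lie below 0, where CD44 lies above 0 under the other scalings, while the 20 lysosomal partner genes spread around 0.

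Markers of liver cell types were also read, although both libraries are of the PLC/PRF/5 line alone. All 12 hepatocyte markers were listed and passed, with 8 lower and 4 higher under each scaling, a median log2 ratio of -0.35 and a sum of 2678 CPM without and 2010.3 CPM with M2BPGi. At least 20% lower were 6 of 12 under each scaling. Of all genes, 57.0% were lower and 18.4% at least 20% lower as deposited, and after scaling 14.4% (TMM) and 13.99% (median) were at least 20% lower. The most abundant was the fibrinogen gene FGB, with 950.03 and 623 CPM, which was also the lowest at -0.61. SERPINA1 and APOH followed at -0.56 and -0.51, while HNF4A, APOA2 and AFP were the highest at 0.16, 0.11 and -0.30. AFP had 695 and 566 CPM, and the albumin gene ALB was low, with 8.82 and 7.04 CPM. The part of hepatocyte genes in the lower value of LGALS3BP was not tested. Of 10 stellate cell and fibroblast markers, 2 were listed, COL3A1 with 4.53 and 3.42 CPM and COL1A1 with 0.67 and 0.76 CPM, which sum to 5.20 and 4.18 CPM. COL3A1 alone passed the filter, at -0.32 with an interval of -0.83 to 0.02, which held 0, and at -0.18 with 5 CPM added in place of 1. Of 11 macrophage markers, 4 were listed, with a sum of 21.2 and 20.51 CPM. CD68 made up this sum, with 21.2 and 20.47 CPM, a log2 ratio of -0.05 that was 0.00 after TMM scaling and 0.01 after median scaling. CSF1R and PTPRC were at 0 in both libraries, where a count of 0, taken to allow up to 3 tags, allows 0.125 CPM (non-treated) and 0.121 CPM (M2BPGi-treated), and AIF1 had 0 and 0.04 CPM.

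A transcript length was annotated for 13271 of the 13724 genes, and among these the log2 ratio was lower for longer transcripts. In 4 groups of similar size by the longest annotated transcript of each gene, the median went from 0.03 in the shortest group through -0.03 and -0.07 to -0.12 in the longest. LGALS3BP, with 2405 nt, differed from its group's median by -0.35, and 11.4% of that group had a lower ratio. LGALS1, with 637 nt, was 0.22 above that of the shortest group, where 22.0% were higher. LGALS3, with 1734 nt, was 0.10 above, and 36.5% were higher. LGALS8, with 6420 nt, was 0.26 above the median of the longest group, where 15.0% were higher. LGALS4, with 1535 nt, differed from the median of the shortest group by -0.41. Each member lay on the same side of the median of its length group as of the median of all genes. None of the 18 galectin-3 ligand genes was in the shortest group and 8 were in the longest. Of the 18, 17 lay below the median of their own group, with a median difference of -0.21. By construction a group has as many genes below its median as above it. The part of transcript length in these values was not tested.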

How the data were processed

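CAGE libraries of PLC/PRF/5 cells were compared, 1 non-treated and 1 M2BPGi-treated. The authors deposited tags per gene as CPM rounded to 2 decimals. They discarded ribosomal tags and mapped the others with BWA. The submitters' processing notes name hg19, BWA and HISAT2, while the paper names a mouse genome. The gene identifiers are human. The assignment of tags to genes is not given in the sources used here.

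The CPM of 1 tag gave the number of tags behind each value (100% whole within 0.005 CPM, the rounding, but 83.2% in the non-treated and 80.4% in the M2BPGi-treated library within 0.1 tag, which is narrower than the rounding), used for intervals and TMM factors alone. A planned count test was not run, because CPM are not counts. Log2 ratios used a pseudocount of 1 CPM over genes with a mean of at least 1 CPM. Alternatives were other pseudocounts, filters, scalings and a fold threshold of 2.

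The members and lists were chosen with earlier results of these data known. Named genes are those with galectin symbols, the 3 highest and 3 lowest of each list with a mean of at least 10 CPM, the 3 nearest to LGALS3BP and LGALS3, and the most abundant marker. Of these, 1 gene is not reported here. Others were chosen after their values were seen, as was the comparison by transcript length. They include CD44, COL6A1, HEATR1, ALB, COL1A1, AIF1, the genes named only for their copies and the markers at 0. Near-identical copies were searched with BLAST+ 2.17.0 among GENCODE v29 transcripts, using up to 500 nt from each 5′ end and asking for 95% identity along 100 nt or more in a gene at another place. The 5 members had none. The ratio script was tested on simulated data. Python 3.11.15, scipy 1.17.1, numpy 2.4.6, pandas 2.3.3 and matplotlib 3.10.9 were used.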

Additional observations from a re-analysis of the deposited data

How the results depend on the processing

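No paired analysis was possible because there is 1 library for each condition, and none can be left out. The planned count test and its TMM alternative were not run. TMM factors were computed from the published formula. The log2 ratios of the members kept their direction in 20 of 20 values under other pseudocounts and scalings, but calls did not all hold. LGALS4 (-0.37) was at -0.21 with a pseudocount of 5 CPM and at -0.32 with median scaling, both short of 20% lower. LGALS3BP (-0.38) was at -0.33 with both scalings, just beyond the upper end of its counting interval and still past 20% lower. LGALS2 (0.39) was at 0.23 with a pseudocount of 5 CPM, short of 25% higher. The counts of genes past the bounds of 25% higher and 20% lower, 1240 and 2532, were 776 and 1476 with a pseudocount of 5 CPM, which shrinks ratios, and 33 and 59 at a fold threshold of 2. With a mean of at least 10 CPM fewer genes are tested, and 1477 were lower. Medians of lists moved beyond the counting error of the gene nearest the median as follows, and the cause was not tested beyond the construction of each setting. With TMM and with median scaling, the galectin-3 ligand genes (-0.29) were at -0.24 and -0.24, the matrix partner genes (-0.29) at -0.24 and -0.24, the interferon-stimulated genes (-0.14) at -0.088 and -0.087, and the hepatocyte markers (-0.35) at -0.31 and -0.30. With a pseudocount of 5 CPM, the ligand genes were at -0.25 and the hepatocyte markers at -0.25, and with 0.1 CPM the latter were at -0.41. With a mean of at least 10 CPM, the matrix partner genes were at -0.33 and the hepatocyte markers at -0.46, and with no filter except above 0 in a library the matrix partner genes were at -0.23. Medians that moved by over 1.5 times within that error were also seen. The lysosomal partner genes (0.01) were at 0.06 with both scalings and at 0.05 with a mean of at least 10 CPM. The stellate cell markers (-0.32) were at -0.18 with a pseudocount of 5 CPM and at -0.12 with no filter. Of 53 values of the lists, 50 kept their sign, and the 3 others were those of the macrophage markers. Depth limits LGALS4 most among the members, and the missing replicates limit each comparison.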

Other observations

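The gene next to LGALS4 on the same strand, ECH1, which encodes an enzyme of fatty acid oxidation, lies 2.06 kb away and was higher in M2BPGi-treated cells. It had 87.4 CPM without and 151 CPM with M2BPGi, a log2 ratio of 0.79 with an interval of 0.71 to 0.87, while LGALS4 was at -0.37. CAPN12, 31.8 kb from LGALS4 on its other side, had 3.74 and 4.26 CPM (0.15, interval -0.23 to 0.61). The neighbours of LGALS3BP on its strand were lower, as it was. TIMP2, an inhibitor of metalloproteinases 45.9 kb away, had 135 and 107 CPM (-0.34), and CANT1, 11.6 kb away, had 51.6 and 43.9 CPM (-0.23). DLGAP5, 2.70 kb from LGALS3 on the other strand, had 69.3 and 55.1 CPM (-0.32), while MAPK1IP1L, 53.9 kb away on the strand of LGALS3, had 50.8 and 54.1 CPM (0.09, interval -0.02 to 0.21). PDXP, 8.67 kb from LGALS1, had 15.4 CPM in both libraries (0.00, interval -0.20 to 0.21), and the gene 6.61 kb away on its other side had 32.0 and 35.0 CPM (0.13, interval -0.01 to 0.27). The nearest listed genes on either side of LGALS8, without overlap, were EDARADD, 15.1 kb away with 1.79 and 2.57 CPM, and MTR, 242 kb away with 16.8 and 15.1 CPM, with intervals that held 0. The neighbours were read after the data were examined, and their values are given as a description.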
